A study of Mus musculus with 12 samples.

Results

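The interferon regulatory factor (IRF) family is described here through 8 of its genes, Irf1, Irf2, Irf3, Irf4, Irf5, Irf7, Irf8 and Irf9, in cultured mouse helper T cells. The genes were taken by name from the annotation of the array, with earlier results of these data known. All 8 are reported, whatever their level or change. They are 8 of the 17927 genes tested and are read by 12 of the 27133 probes kept. Irf9 carries its older name, Isgf3g, on the array and was identified through the RefSeq accession of its probes. The study profiled cultures of Th9 cells, a helper T cell type named for interleukin 9 (IL-9), beside other helper T cell cultures on 12 one-colour microarrays, 3 in each of 4 groups. All cultures began from naive CD4+CD62L+ T cells of C57BL/6 mice, from spleen and lymph nodes, and were activated through CD3 and CD28 for 5 days. Stimulated Th9 cells were Th9 cultures that then received anti-CD3 at 1 µg/ml for 6 h. Th9 cultures themselves grew with TGF-β (2 ng/ml), IL-4 (20 ng/ml) and a blocking antibody to IFN-γ. Th2 cultures had the same IL-4 and IFN-γ antibody but no TGF-β. Cultures of regulatory T (Treg) cells had the TGF-β (2 ng/ml) with a blocking antibody to IL-4, and IL-2 from the expansion on day 3. IFN-γ was therefore blocked in the Th9 and Th2 cultures by design, and the labels name no such antibody for the Treg cultures. No gene was deleted or introduced in any group.

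IRF proteins share a DNA-binding domain that recognises GAAA repeats, the core of the interferon-stimulated response element (ISRE). IRF3, IRF5 and IRF7 are switched on by phosphorylation below nucleic acid sensors and drive the interferon genes, and IRF9 is the DNA-binding part of ISGF3, the complex that carries the type I interferon signal to the ISRE. IRF1 is induced by IFN-γ and IRF2 binds the same elements as a counterpart, while IRF4 and IRF8 are largely restricted to immune cells and bind DNA weakly alone, pairing with partners such as PU.1, SPIB or a BATF-JUN dimer. IRF4 is induced by antigen receptor signalling and is needed in mice for the development of Th9, Th2 and other effector T cells. Much of the control of IRF3, IRF5 and IRF7 acts on the protein, and the arrays read only messenger RNA.

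A level is the log2 signal of a probe relative to the 75th percentile of its array, so a negative level means a signal below that percentile. Probes differ in how well they bind, so levels are compared between samples and not between genes. Between 24646 and 26227 probes per array were well above background, and arrays of 1 group correlated at 0.988 to 0.995 over genes. All 12 probes of the IRF genes were well above background on all 12 arrays. The 12 arrays lay on 3 slides, each scanned on its own. Slide 1 held the Th2 arrays and Treg array 1, slide 2 held Treg arrays 2 and 3 with stimulated Th9 arrays 1 and 2, and slide 3 held stimulated Th9 array 3 and the Th9 arrays. Whether the 3 arrays of a group stem from different animals or cultures is not given in the labels, so a p-value reflects the spread of these samples alone, which may be technical. Il9, the defining cytokine gene, was well above background on all stimulated Th9 and Th9 arrays and on no Th2 or Treg array. Stimulated Th9 array 3 stood apart from the other stimulated arrays in markers of CD8 T cells and NK cells, whose summed signal was 47.5, 42.2 and 9.01 on stimulated Th9 arrays 1, 2 and 3, against 41.5 to 52.3 on the Th9 arrays. It is the only stimulated array on slide 3, so each value from slide 3 alone rests on it. Through it alone slide 3 shares a group with another slide, so each difference of Th9 cells with slide as a block also rests on it. Treg array 1 alone links slides 1 and 2 in the same way. Foxp3, which encodes the master factor of Treg cells, averaged -1.98 ± 0.09 in Th9 cells, against 0.57 ± 0.19 in Treg cells (SD, n = 3 each).

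The stretches upstream of the IRF genes were searched for 3 motifs because 7 of the 8 genes had their highest mean in the same culture. RefSeq (GRCm38.p6) gave 11 windows for the 8 genes, each of 300 bases around a transcription start, with 2 windows for Irf1, Irf8 and Irf9. The motifs were searched on both strands. They were the ISRE core (GAAA, any 2 bases, GAAA), the STAT site TTCNNNGAA (GAS) and the AP-1 site TGANTCA that BATF and JUN bind. The first was present in 3.44% of 32851 promoter windows of the mouse annotation, the second in 8.30% and the third in 7.81%. An ISRE match lay in 1 of the 11 windows, a GAS match in 3 and an AP-1 match in 0. The 3 windows with a match are shown over their 250 upstream bases, with the matches in capitals. The Irf1 match (GAS) starts at position -90, counted from the transcription start, in chr11:53769764-53770013 on the plus strand. The Irf2 matches start at -241 (ISRE) and -224 (GAS) in chr8:46739495-46739744 on the plus strand. In the Irf8 window, chr8:120736108-120736357 on the plus strand, GAS matches start at -171 and -153. No match overlaps another, and a match here is a description of letters, not evidence of binding.
Irf1: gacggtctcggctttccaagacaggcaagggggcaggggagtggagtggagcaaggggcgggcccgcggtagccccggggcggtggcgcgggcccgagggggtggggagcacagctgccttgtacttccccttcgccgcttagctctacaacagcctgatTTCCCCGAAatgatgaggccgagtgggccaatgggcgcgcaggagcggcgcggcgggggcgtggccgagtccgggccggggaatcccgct
Irf2: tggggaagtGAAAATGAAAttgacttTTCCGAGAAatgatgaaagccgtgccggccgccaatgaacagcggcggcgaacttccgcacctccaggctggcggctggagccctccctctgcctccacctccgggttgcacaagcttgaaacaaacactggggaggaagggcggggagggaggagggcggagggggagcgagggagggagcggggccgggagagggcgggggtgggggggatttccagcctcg
Irf8: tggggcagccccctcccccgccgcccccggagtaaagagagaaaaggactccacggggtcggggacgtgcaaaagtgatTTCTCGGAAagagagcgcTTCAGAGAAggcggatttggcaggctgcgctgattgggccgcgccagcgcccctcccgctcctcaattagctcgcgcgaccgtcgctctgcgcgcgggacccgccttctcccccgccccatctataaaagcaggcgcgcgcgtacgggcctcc
The windows of Irf3, Irf4, Irf5, Irf7 and Irf9, and the other windows of Irf1 and Irf8, hold none of these letters.

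Irf4 was higher in the Th9 and Th2 cultures than in Treg cells, and most other IRF genes were lower. Irf4 had its highest mean in stimulated Th9 cells and its lowest in Treg cells, and the other 7 genes had their highest mean in Treg cells. The share of all genes with their highest mean in Treg cells was not computed. In Th9 cells, set against Treg cells, 7 of the 8 genes passed the test, Irf4 upwards and Irf1, Irf2, Irf3, Irf5, Irf7 and Irf9 downwards, while Irf8 did not pass. Over all genes tested, 64.0% passed in this comparison, 28.8% upwards and 35.2% downwards. In Th2 cells, set against Treg cells, all 8 genes passed, Irf4 upwards and the other 7 downwards, where 62.7% of all genes passed, 29.2% upwards and 33.4% downwards. The 2 comparisons share the Treg arrays. In Th9 cells, set against Th2 cells, only Irf4 passed, upwards, where 17.0% of all genes passed (7.78% upwards, 9.22% downwards), so the share of IRF genes was near that of all genes. Same-numbered Th9 and Th2 arrays deviated together, and with the replicate number as a block 2 of the 8 passed, Irf4 and Irf8, where 17.2% of all genes passed. After stimulation of Th9 cells 3 of the 8 genes passed, Irf3 and Irf4 upwards and Irf5 downwards, where 63.7% of all genes passed, 33.1% upwards and 30.6% downwards. The same 3 passed without stimulated Th9 array 3, with Irf3 at 0.68 ± 0.15 (adjusted p = 0.00349), Irf4 at 0.68 ± 0.21 (adjusted p = 0.0157) and Irf5 at -0.73 ± 0.13 (adjusted p = 0.000809). The test throughout was limma with Benjamini-Hochberg adjustment over all genes tested, at an adjusted p of 0.05.

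**Figure D1:**
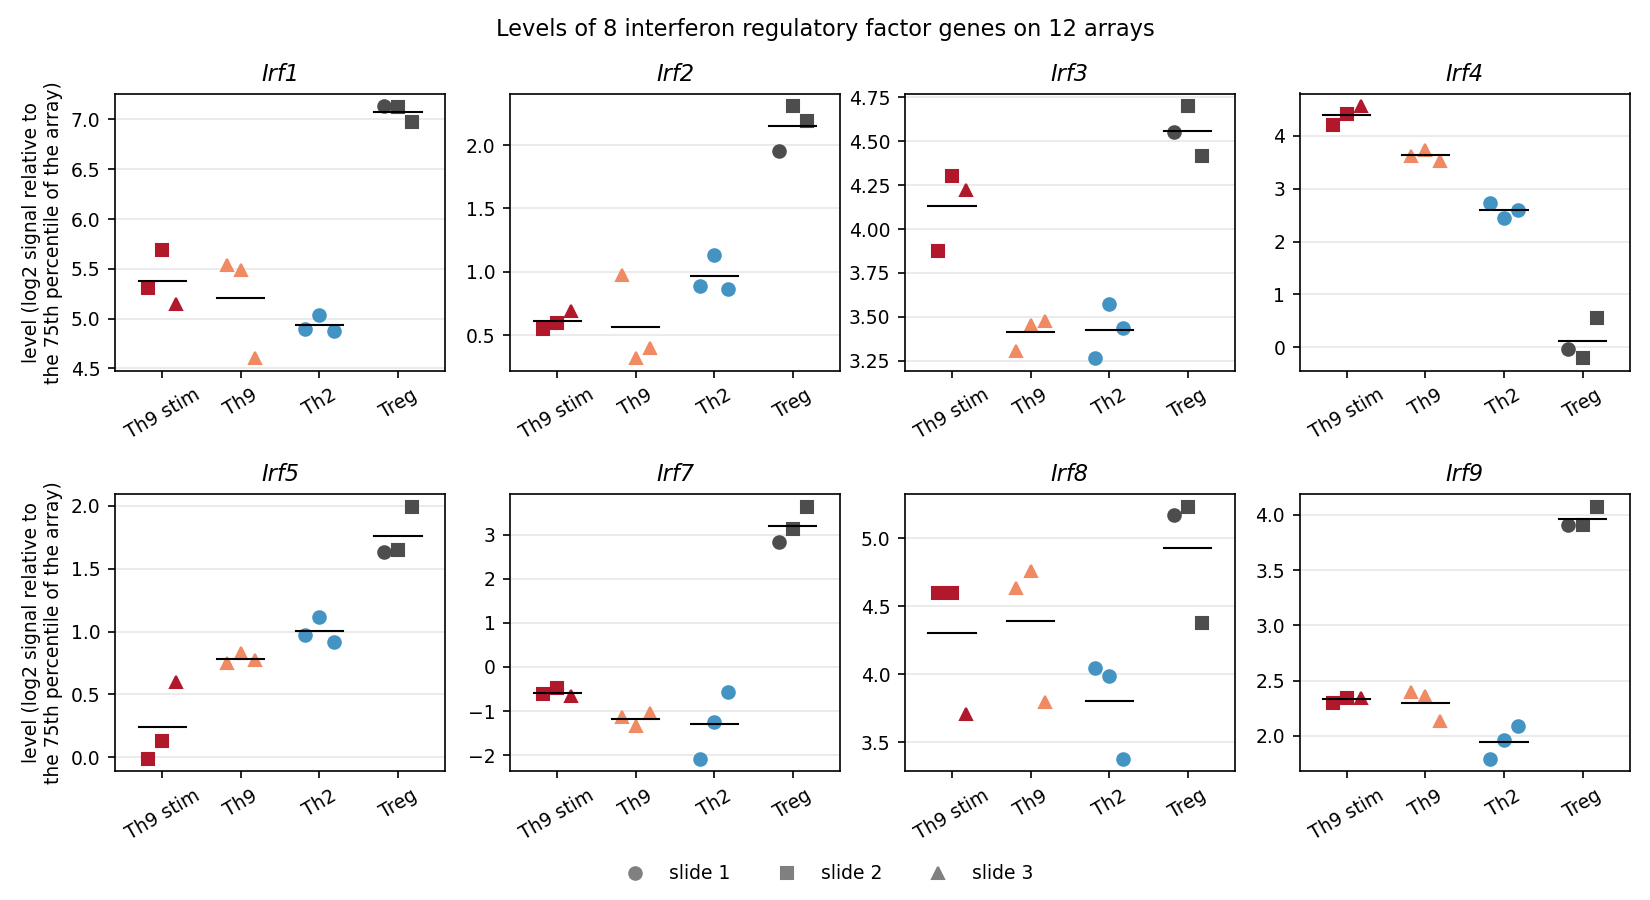
Levels (log2 signal relative to the 75th percentile of the array) of the 8 IRF genes on each of 12 arrays, with 1 panel a gene, points for arrays, shapes for slides and lines for group means of 3 arrays. Irf4 falls stepwise across the groups as drawn. In the panels of Irf1, Irf2, Irf3, Irf5, Irf7 and Irf9 every Treg array lies above every other array. How often that holds over all genes was not computed.

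Irf4 separated all 4 groups without overlap. Its level was 4.20, 4.41 and 4.56 in stimulated Th9 cells, 3.62, 3.73 and 3.52 in Th9 cells, 2.73, 2.45 and 2.60 in Th2 cells, against -0.02, -0.21 and 0.56 in Treg cells. The lowest stimulated Th9 array stood 0.47 above the highest Th9 array, the lowest Th9 array 0.79 above the highest Th2 array, and the lowest Th2 array 1.89 above the highest Treg array. The share of all genes that separate all 4 groups was not computed. Irf4 was 11.4-fold higher in Th9 cells than in Treg cells, a log2 difference of 3.52 ± 0.18 (SE; adjusted p = 9.03e-08). It was 5.60-fold higher in Th2 than in Treg cells (log2 2.48 ± 0.18, adjusted p = 1.02e-06). The smaller step between Th9 and Th2 cells, 2.04-fold or 1.03 ± 0.18 on the log2 scale, also passed (adjusted p = 0.00423). Stimulation raised Irf4 by a further 0.76 ± 0.18, which is 1.70-fold (adjusted p = 0.00378).

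The slides bear unevenly on these Irf4 steps. No slide holds both Th9 and Th2 arrays or both Th9 and Treg arrays. Slide can be taken into account for these pairs only through a fit with slide as a block, which reaches slide 3 through stimulated Th9 array 3 alone. With the block, the step between Th9 and Th2 cells was 0.57 ± 0.44 and no longer passed (adjusted p = 0.675), while 318 of all genes passed with it. The step between Th9 and Treg cells was 3.19 ± 0.35 with the block (adjusted p = 0.000316). On slide 3 alone, where 1 stimulated array met all 3 Th9 arrays, the rise after stimulation was 0.93 ± 0.17 (adjusted p = 0.0150). On slide 1 alone, Irf4 in the 3 Th2 arrays stood 2.62 ± 0.17 above Treg array 1 (adjusted p = 0.00185). In both within-slide fits the single array was taken to vary like the others. The rise after stimulation shrank to 0.44 when the arrays were quantile normalized, and then missed the threshold (adjusted p = 0.0643).

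Irf8, the closest relative of Irf4 and a factor of B cell and myeloid development, varied within groups with an SD of 0.37 to 0.52. Its level was 4.60, 4.60 and 3.71 in stimulated Th9 cells, 4.63, 4.76 and 3.79 in Th9 cells, 4.05, 3.99 and 3.38 in Th2 cells, against 5.17, 5.23 and 4.38 in Treg cells. Array 3 was the lowest in each of the 4 groups. Its difference from the mean of arrays 1 and 2 was -0.89 in stimulated Th9 cells, -0.90 in Th9 cells, -0.64 in Th2 cells, and it was -0.83 in Treg cells. By the second probe of Irf8 that difference was -0.80 in stimulated Th9 cells, -0.86 in Th9 cells, -0.66 in Th2 cells, and it was -0.68 in Treg cells. The 4 arrays numbered 3 lie on all 3 slides. Of all genes tested, 36 (0.201%) were lower by at least 0.5 on array 3 in all 4 groups. Of the other IRF genes, Irf1 also had array 3 lowest in all 4 groups, at -0.91 to -0.09 from the mean of the other arrays, and the remaining 6 had it lowest in 1 group each.

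**Figure D2:**
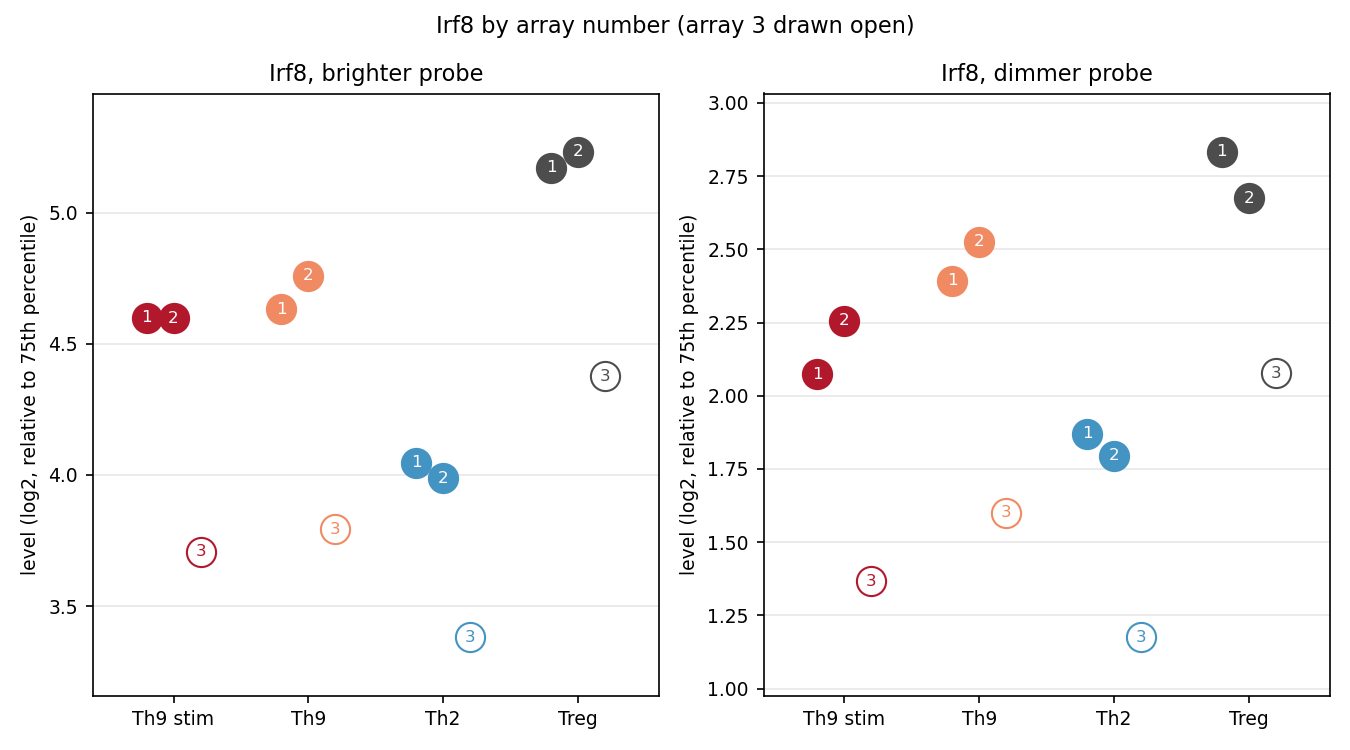
Level of Irf8 (log2 signal relative to the 75th percentile of the array) by its brighter probe and its dimmer probe, with each array drawn as its number and array 3 drawn open. Array 3 is the lowest point of each group for both probes, with a difference of -0.90 from the other arrays in Th9 cells by the brighter probe.

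In tests over all 12 arrays, Irf8 was 2.18-fold lower in Th2 cells than in Treg cells (log2 -1.12 ± 0.35, adjusted p = 0.0156). That call was lost without Th2 array 3 (adjusted p = 0.0624), Treg array 1 (adjusted p = 0.0545) or Treg array 2 (adjusted p = 0.0585). The difference between Th9 and Treg cells, -0.53 ± 0.35, did not pass (adjusted p = 0.200), nor did the 0.59 ± 0.35 between Th9 and Th2 cells (adjusted p = 0.276). With the replicate number as a block over all 12 arrays, the Irf8 difference between Th9 and Th2 cells was 0.59 ± 0.10 and passed (adjusted p = 0.00504). That block takes the numbers as shared by all groups, and Irf8 was lowest on array 3 in each group. Stimulated Th9 and Th9 cells differed by -0.09 ± 0.35 (adjusted p = 0.832). Without the arrays numbered 3, a choice made after these values were seen, the Irf8 difference between Th9 and Th2 cells was 0.68 ± 0.09 and passed (adjusted p = 0.00513), as did the -0.51 ± 0.09 between Th9 and Treg cells (adjusted p = 0.00289). With slide as a block the Th9 to Treg difference turned to 0.48 ± 0.59 (adjusted p = 0.551). That fit reaches the Th9 arrays on slide 3 only through stimulated Th9 array 3. Irf8 on that array differed by -0.89 from the mean of stimulated arrays 1 and 2.

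Among the 3 factors that act below nucleic acid sensors, Irf7 spanned the widest range. IRF7 amplifies type I interferon production, and its gene is itself induced by interferon. Irf7 levels were -0.61, -0.48 and -0.67 in stimulated Th9 cells, -1.14, -1.34 and -1.05 in Th9 cells, -2.08, -1.25 and -0.57 in Th2 cells, against 2.84, 3.12 and 3.64 in Treg cells. The lowest Treg array lay 3.32 above the highest array of any other group, and the Th2 arrays ran from below every Th9 array to within the range of the stimulated Th9 arrays. Irf7 was 20.8-fold lower in Th9 cells than in Treg cells (log2 -4.38 ± 0.32, adjusted p = 9.03e-07) and 22.6-fold lower in Th2 cells than in Treg cells (log2 -4.50 ± 0.32, adjusted p = 7.78e-07). Every stimulated Th9 array lay above every Th9 array, but the difference of 0.59 ± 0.32 did not pass (adjusted p = 0.130). It passed in 1 of 18 alternative settings, limma with only the arrays compared (adjusted p = 0.00591). Th9 and Th2 cells differed by 0.12 ± 0.32 (adjusted p = 0.835).

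Irf3 and Irf5 moved apart after stimulation. IRF3 is the constitutively made factor that TBK1 phosphorylates to start interferon production. Irf3 levels were 3.87, 4.30 and 4.22 in stimulated Th9 cells, 3.31, 3.45 and 3.47 in Th9 cells, 3.26, 3.57 and 3.43 in Th2 cells, against 4.55, 4.70 and 4.42 in Treg cells. The Th9 and Th2 arrays intermingled, and the stimulated Th9 arrays lay between them and the Treg arrays. Stimulation raised Irf3 1.65-fold (log2 0.72 ± 0.14, adjusted p = 0.000792), and on slide 3 alone by 0.81 ± 0.17 (adjusted p = 0.0203). Under the 18 alternative settings of this comparison the rise ran from 0.39 to 0.85 and passed in all 18. Irf3 was 2.21-fold lower in Th9 cells than in Treg cells (log2 -1.15 ± 0.14, adjusted p = 3.24e-05), and Th9 and Th2 cells differed by -0.01 ± 0.14 (adjusted p = 0.964).

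IRF5 acts below Toll-like receptors and MyD88, mainly in B cells and myeloid cells. Irf5 levels were -0.01, 0.13 and 0.60 in stimulated Th9 cells, 0.75, 0.83 and 0.77 in Th9 cells, 0.97, 1.11 and 0.92 in Th2 cells, against 1.63, 1.65 and 1.99 in Treg cells. No 2 groups overlapped, and the order was the reverse of that of Irf4. How often groups stay apart in this way over all genes was not computed. Stimulation lowered Irf5 1.46-fold (log2 -0.55 ± 0.16, adjusted p = 0.0107). The 2 lowest stimulated arrays were on slide 2, and on slide 3 alone the difference was -0.19 ± 0.16 and did not pass (adjusted p = 0.378). Irf5 was 1.96-fold lower in Th9 cells than in Treg cells (log2 -0.97 ± 0.16, adjusted p = 0.000308). The difference between Th9 and Th2 cells, -0.22 ± 0.16, did not pass (adjusted p = 0.385), although the arrays did not overlap.

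Irf9, which encodes the DNA-binding part of ISGF3, was measured with the smallest SE of the 8 genes (0.11). Its level was 2.30, 2.34 and 2.35 in stimulated Th9 cells, 2.40, 2.36 and 2.14 in Th9 cells, 1.79, 1.96 and 2.09 in Th2 cells, against 3.91, 3.91 and 4.07 in Treg cells. Irf9 was 3.17-fold lower in Th9 cells than in Treg cells (log2 -1.66 ± 0.11, adjusted p = 4.30e-07) and 4.04-fold lower in Th2 cells than in Treg cells (log2 -2.02 ± 0.11, adjusted p = 1.18e-07). Each Th9 array lay above each Th2 array, by 0.05 at the closest. That difference, 0.35 ± 0.11, narrowly missed the threshold (adjusted p = 0.0514) and passed in 7 of its 17 alternative settings, with adjusted p from 0.0150 to 0.803. Stimulation gave a difference of 0.03 ± 0.11 (adjusted p = 0.819).

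Irf1 and Irf2 encode an activator and its counterpart on shared elements, and both were highest in Treg cells. Irf1 levels were 5.31, 5.69 and 5.15 in stimulated Th9 cells, 5.54, 5.49 and 4.60 in Th9 cells, 4.89, 5.04 and 4.87 in Th2 cells, against 7.13, 7.12 and 6.98 in Treg cells. Apart from the Treg arrays, which lay at least 1.29 above the rest, the groups overlapped, with Th9 array 3 the lowest of all 12. Irf1 was 3.65-fold lower in Th9 cells than in Treg cells (log2 -1.87 ± 0.23, adjusted p = 3.97e-05) and 4.42-fold lower in Th2 cells than in Treg cells (log2 -2.14 ± 0.23, adjusted p = 1.42e-05). Th9 and Th2 cells differed by 0.27 ± 0.23 (adjusted p = 0.452). Without Th9 array 3 the difference was 0.58 and passed (adjusted p = 0.0350).

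Irf2 levels were 0.55, 0.60 and 0.69 in stimulated Th9 cells, 0.97, 0.32 and 0.40 in Th9 cells, 0.89, 1.14 and 0.87 in Th2 cells, against 1.96, 2.31 and 2.19 in Treg cells. Th9 array 1 lay among the Th2 arrays and the other Th9 arrays below them. Irf2 was 3.00-fold lower in Th9 cells than in Treg cells (log2 -1.59 ± 0.17, adjusted p = 1.54e-05) and 2.27-fold lower in Th2 cells than in Treg cells (log2 -1.18 ± 0.17, adjusted p = 0.000129). The -0.40 ± 0.17 between Th9 and Th2 cells did not pass over all arrays (adjusted p = 0.135), and was -0.61 without Th9 array 1 (adjusted p = 0.0198). Neither Irf1 (0.17 ± 0.23, adjusted p = 0.531) nor Irf2 (0.05 ± 0.17, adjusted p = 0.825) passed after stimulation.

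**Figure D3:**
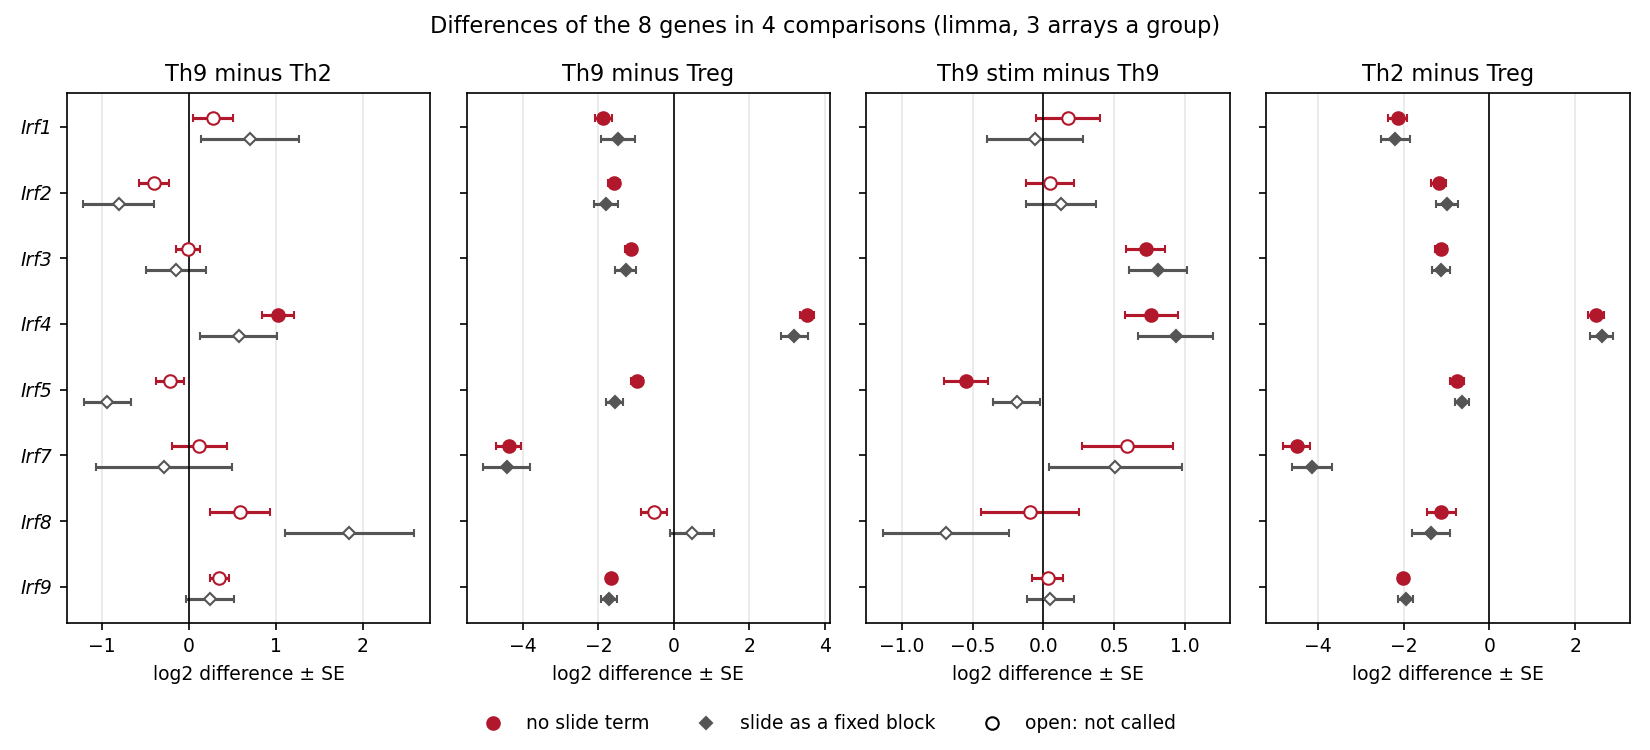
Log2 differences ± SE of the 8 IRF genes in 4 comparisons of 3 arrays a group, from the limma fit without a slide term (circles) and with slide as a fixed block (diamonds), with open symbols for an adjusted p of 0.05 or more. Irf4 lies right of 0 in all 4 panels, and the differences from Treg cells keep their side with the block except for Irf8 in Th9 cells.

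The median log2 difference of the 8 genes was -1.37 between Th9 and Treg cells, against -0.11 over all genes, and -1.16 between Th2 and Treg cells, against -0.08. It was 0.20 between Th9 and Th2 cells, against -0.03 over all genes, and 0.11 after stimulation, against 0.02. With slide as a block the same 7 genes passed between Th9 and Treg cells, where 37.3% of all genes passed, with Irf7 at -4.43 ± 0.62 and Irf9 at -1.72 ± 0.22. On slide 1 alone, which holds only Treg array 1 of the Treg group, differences between Th2 and Treg cells ran from -4.14 for Irf7 to 2.62 for Irf4. The counts between Th2 and Treg cells stayed at 8 without the arrays numbered 3, where 64.2% of all genes passed, and that between Th9 and Treg cells became 8 with Irf8, where 65.6% passed. Between Th9 and Th2 cells the count became 4 without those arrays, with Irf1, Irf8 and Irf9 added to Irf4, all higher in Th9 cells, where 20.4% of all genes passed.

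Irf1, Irf3, Irf8 and Irf9 are each read by a second probe. In the 16 pairings of these 4 genes with the 4 comparisons, both probes gave the same call in all 16 and the same direction in 14. The 2 that differed in direction were Irf1 and Irf9 after stimulation, and neither passed by either probe. The second probes gave smaller differences between Th9 and Treg cells, at -1.69 ± 0.20 for Irf1, -0.86 ± 0.12 for Irf3, -0.35 ± 0.32 for Irf8 and -1.47 ± 0.19 for Irf9. For Irf3 after stimulation the second probe gave 0.50 ± 0.12 (adjusted p = 0.00380).

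Genes with profiles most like each IRF gene were found by the root mean square difference of levels, each centred on its own mean, over the 12 arrays. The nearest to Irf4 were Adcy4 (0.26), Stx11 (0.34) and Lonrf3 (0.37). Those nearest to Irf7 were Slfn9 (0.27), Oas1f (0.39) and Dleu2 (0.43). Igtp, an interferon-induced GTPase gene, was nearest to Irf1 (0.21), followed by Rdh5 (0.21) and Nin (0.22). For Irf9 the nearest were Leng9 (0.15), Npff (0.16) and Tapbp, the tapasin gene of antigen presentation (0.16). Irf5 was most like Fli1 (0.13), Tspo (0.13) and Tmem50b (0.13), and Irf3 most like Cib1 (0.12), Gpatch11 (0.12) and Gtf2a2 (0.15). Irf2 lay nearest to Osbp2 (0.17), Pced1b (0.18) and Cyth1 (0.19), and Irf8 nearest to 1110002L01Rik (0.21), A530088E08Rik (0.25) and Tef (0.28). These distances describe the 12 arrays and carry no test.

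Partners of the IRF proteins and the IRF2-binding proteins were followed through 14 tested genes. Counts in this and the later lists stand beside the shares of all genes. Of all genes, 64.0% passed between Th9 and Treg cells and 62.7% between Th2 and Treg cells. The share was 17.0% between Th9 and Th2 cells and 63.7% after stimulation. With slide as a block 37.3% passed between Th9 and Treg cells, 1.77% between Th9 and Th2 cells and 50.5% after stimulation. These shares, and the counts of the lists with the block, rest on stimulated Th9 array 3 as the only link to slide 3. Batf, whose product joins JUN proteins to seat IRF4 on DNA, had its means in the order of Irf4 among the unstimulated cultures and not after stimulation. Its log2 difference was 1.32 ± 0.18 between Th9 and Th2 cells (adjusted p = 0.000884) and 2.15 ± 0.18 between Th9 and Treg cells (adjusted p = 2.47e-06). With slide as a block the Batf difference between Th9 and Th2 cells was 0.66 ± 0.38 and did not pass (adjusted p = 0.525). After stimulation Batf fell (log2 -0.74 ± 0.18, adjusted p = 0.00425). Against Treg cells, 5 of the 14 genes were higher in Th9 cells, led by Batf3 (4.0 ± 0.27), the Aiolos gene Ikzf3 (2.31 ± 0.22) and Batf, and 6 were lower, among them Spib (-3.49 ± 0.52) and Stat2 (-2.08 ± 0.16), which encodes a partner of IRF9 in ISGF3. In Th9 cells, set against Th2 cells, 5 were higher and 1, Ikzf1, lower (-0.75 ± 0.20), and with slide as a block 1 was higher and 0 lower. After stimulation 3 were higher and 7 lower, with Irf2bp2, which encodes a corepressor of IRF2, at -1.55 ± 0.11 (adjusted p = 6.31e-07), and on slide 3 alone 2 were higher and 3 lower. Spi1, which encodes PU.1, was not tested.

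Upstream of the IRF proteins, 18 genes of sensors, adaptors and kinases were tested. Set against Treg cells, Th9 cells had 12 lower and 3 higher. The lower ones included Tlr7, an endosomal RNA sensor gene (-3.71 ± 0.29), Ifih1, the MDA5 gene (-3.32 ± 0.25), and Ikbke, which encodes a kinase of IRF3 and IRF7 (-2.17 ± 0.15). Rel (1.50 ± 0.25), Traf6 (1.49 ± 0.11) and Ticam1 (1.46 ± 0.16) were the 3 higher. The slide block left 3 higher and 7 lower in that comparison. After stimulation 7 rose, among them Cgas (1.83 ± 0.21), Ifih1 (1.43 ± 0.25) and Traf3 (1.15 ± 0.10), and 3 fell, Ticam1 (-1.43 ± 0.16), Ddx58 (-1.11 ± 0.35) and Ikbke (-0.39 ± 0.15). On slide 3 alone 4 were higher and 1 lower, and Ddx58 (-0.15 ± 0.20, adjusted p = 0.576) and Ikbke (-0.10 ± 0.20, adjusted p = 0.699) did not pass there. Set against Th2 cells, Th9 cells had 1 higher, Tlr7 (1.81 ± 0.29), and 2 lower, among them Ifih1 (-1.33 ± 0.25), where 17.0% of all genes passed. The slide block left 0 higher and 1 lower there, and neither Tlr7 (adjusted p = 0.0733) nor Ifih1 (adjusted p = 0.0590) passed. The replicate block gave 1 higher and 1 lower.

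Interferon genes, receptors and Janus kinases gave 10 tested genes, and Ifnb1 was not tested. Ifng was the only one to rise after stimulation, by 6.82 ± 0.79 on the log2 scale (adjusted p = 2.26e-05). Its level was 8.39, 8.12 and 4.56 on stimulated Th9 arrays 1, 2 and 3, and without array 3 the rise was 8.05 ± 0.27 (adjusted p = 8.98e-08). The receptor genes Ifngr1 (-2.24 ± 0.23), Ifnlr1 (-2.03 ± 0.21) and Ifnar2 (-1.74 ± 0.11) led the 5 that fell. Set against Treg cells, Th9 cells had 6 lower, led by Ifnar1 (-1.94 ± 0.18), Ifngr1 (-1.62 ± 0.23) and Il10rb (-1.13 ± 0.09), and Ifnlr1 (1.86 ± 0.21) and Jak2 (1.77 ± 0.15) were higher.

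The interferon-stimulated genes, targets of ISGF3, were almost all lower in Th9 than in Treg cells. Of 27 tested type I interferon-stimulated genes, 26 were lower and 0 higher in Th9 cells, set against Treg cells, with a median log2 difference of -3.77. Ifit3 stood at -9.55 ± 0.51, Ifi44 at -8.76 ± 0.77 and Rtp4 at -7.37 ± 0.56, with Ifi44 well above background on 1 of the 3 Th9 arrays. With slide as a block 26 were again lower, and likewise without the arrays numbered 3. Set against Treg cells, 25 of the 27 were lower in Th2 cells. Array 3 differed from the mean of arrays 1 and 2, in the median of the 27 genes, by 0.11 in stimulated Th9 cells (11 genes lower on array 3), 0.13 in Th9 cells (8 lower), 0.61 in Th2 cells (3 lower) and 0.74 in Treg cells (0 lower). Irf7 was lowest on array 3 among the stimulated Th9 arrays and highest on it in the other 3 groups. Set against Th2 cells, Th9 cells had 10 of these genes lower, led by Ifi44 (-3.53 ± 0.77), Isg20 (-2.94 ± 0.30) and Mx2 (-2.37 ± 0.42), and 2 higher, Usp18 (1.80 ± 0.43) and Zbp1 (0.88 ± 0.16). With slide as a block, 1 of these 27 passed between Th9 and Th2 cells.

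After stimulation of Th9 cells Irf7 and Irf9 did not pass in the main fit. The Irf7 rise was 0.50 to 0.70 under its 18 alternative settings and passed in 1, with only the arrays compared. Of the 27 interferon-stimulated genes 13 rose and 4 fell, with a median of 0.81. Over all genes tested 63.7% passed, 33.1% upwards and 30.6% downwards, with a median of 0.02. Isg15 (3.37 ± 0.32), Ifi44 (3.25 ± 0.77) and Mx2 (2.85 ± 0.42) led the rises, with Ifi44 well above background on all 3 stimulated Th9 arrays and on 1 of the 3 Th9 arrays, and Samd9l (-3.13 ± 0.16), Dhx58 (-2.04 ± 0.24) and Parp9 (-0.89 ± 0.13) led the falls. On slide 3 alone 14 were higher and 2 lower, and Parp9 did not pass there (-0.75 ± 0.23, adjusted p = 0.0575). Fitted with the slide block, 10 were higher and 3 lower, and Ifi44 did not pass (3.08 ± 1.18, adjusted p = 0.0571). Of 20 tested IFN-γ and IRF1 response genes, 10 rose, with Cxcl10 at 3.34 ± 0.47, and 6 fell, with the class II transactivator gene Ciita at -2.66 ± 0.41. Set against Treg cells, Th9 cells had 15 of these 20 lower, led by the GTPase genes Gbp7 (-3.51 ± 0.42) and Irgm1 (-2.70 ± 0.25) beside Ciita (-2.92 ± 0.41), and 2 were higher, Il12rb1 (1.48 ± 0.15) and Socs1 (0.85 ± 0.13). With slide as a block 9 were lower in that comparison. Set against Th2 cells, Th9 cells had 2 lower, Casp1 (-0.96 ± 0.19) and Il12rb1 (-0.71 ± 0.15), and 0 higher, and with slide as a block 0 of the 20 passed there in either direction.

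**Figure D4:**
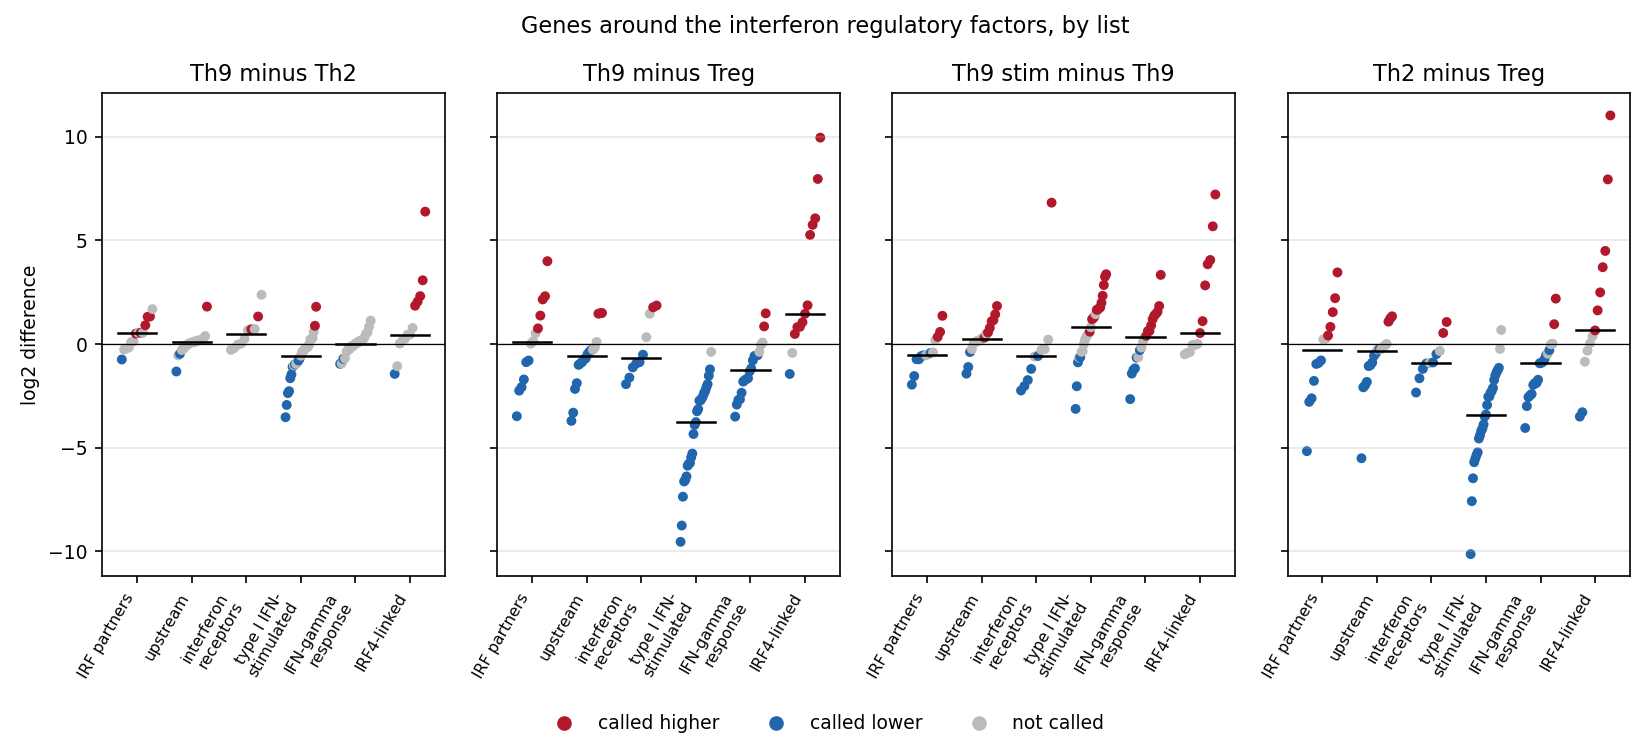
Log2 differences of tested genes in 6 lists around the IRF family, in 4 comparisons, with a point for each gene, sorted within its list and coloured by its call, and black lines for list medians. The type I interferon-stimulated genes lie below 0 nearly throughout against Treg cells and mostly above 0 after stimulation.

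Genes linked to IRF4 in helper T cells, a list assembled from general knowledge, gave 13 tested genes. Set against Treg cells, Th9 cells had 11 higher and 1 lower, with a median of 1.46, and with slide as a block 6 were higher and 0 lower. The T helper cytokine genes Il4 (9.96 ± 0.40) and Il10 (7.97 ± 0.28) led, well above background on 1 and 2 of the 3 Treg arrays, and Il9 was at least 19.9-fold higher (adjusted p = 1.96e-07), a bound because its probe was not well above background in Treg cells. Bcl6, the factor gene of follicular helper cells, was the lower one (-1.45 ± 0.21). Between Th9 and Th2 cells 5 were higher, among them Il9, at least 18.5-fold higher (adjusted p = 4.17e-06), and Il1rl1 (2.31 ± 0.41), and Prdm1, which encodes the repressor BLIMP-1, was lower (-1.44 ± 0.25). Between these cultures the slide block left 3 higher and 0 lower, and neither Il1rl1 (adjusted p = 0.133) nor Prdm1 (adjusted p = 0.254) passed. After stimulation 7 rose, led by Il9 (7.22 ± 0.36), Il21 (5.68 ± 0.26) and Il4 (4.06 ± 0.40), and 0 fell. Several of these genes define the cultures, and they were listed with earlier results of these data known.

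The summed signals of B cell markers and of myeloid and dendritic cell markers were highest in Treg cells, as was that of T cell markers. In bulk samples, fewer cells of a type and less RNA per cell cannot be told apart. Against Treg cells, 9 of 10 B cell markers were lower in Th9 cells and 10 of 10 in Th2 cells. Their summed signal, relative to the 75th percentile of the array, was 0.795 to 2.62 in stimulated Th9 cells, 5.38 to 7.12 in Th9 cells, 2.80 to 4.71 in Th2 cells, against 58.5 to 80.3 in Treg cells. Cd79b and Ms4a1, defining markers of B cells, were well above background on all 12 arrays. Of 12 tested myeloid and dendritic cell markers, 7 were lower and 3 higher in Th9 than in Treg cells, the higher ones being Adgre1 (2.87 ± 0.30), Fcer1g (0.89 ± 0.27) and Cd68 (0.71 ± 0.23). Their summed signal was 2.17 to 3.52 in stimulated Th9 cells, 3.22 to 4.0 in Th9 cells, 3.18 to 3.95 in Th2 cells, against 12.5 to 13.6 in Treg cells. Lyz2 and Itgam were well above background in Treg cells only, and the dendritic cell markers Siglech and Clec9a on no array. After stimulation 7 of the 10 B cell markers fell. Their summed signal was 2.17, 2.62 and 0.795 on stimulated Th9 arrays 1, 2 and 3, where Irf5 was at -0.01, 0.13 and 0.60. Irf5, Irf7, Irf8 and Spib are also expressed in B and myeloid cells, and the part of such cells in the differences of the IRF genes was not tested. Of 9 tested T cell markers, 5 were lower and 0 higher in Th9 than in Treg cells, and Cd4 was well above background on all 12 arrays. The summed signal of T cell markers was 299 to 327 in stimulated Th9 cells, 289 to 332 in Th9 cells, 351 to 371 in Th2 cells, against 494 to 606 in Treg cells. Of 7 tested CD8 T cell and NK cell markers, 2 were higher and 1 lower in that comparison, with a median log2 difference of 0.31. With slide as a block 5 were higher and 0 lower, with a median of 2.81. That fit reaches slide 3 only through stimulated Th9 array 3. All 7 markers were lower there than the mean of stimulated arrays 1 and 2, by a median of -2.09. The block count cannot separate the cultures from that array's low signal, so no conclusion is drawn from it. The summed signal of these markers was 23.3 to 31.7 in Th2 cells, against 29.5 to 52.3 in Treg cells. After stimulation 4 of the 7 fell and 0 rose, with a median log2 difference of -1.50. On slide 3 alone 7 fell, with a median of -2.89, and without stimulated Th9 array 3 the count was 4 lower and 1 higher, with a median of -0.79. The part of such cells in the stimulation results was not tested. Of 11 tested T cell receptor restimulation genes, 10 rose and 0 fell in stimulated Th9 cells, against Th9 cells.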

How the data were processed

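Per the file headers, the authors' deposited intensity values come from Feature Extraction 10.5.1.1 (Agilent), as processed, background-subtracted signal. The deposited log2 table of the series appears quantile normalized (column medians 5.171 to 5.174), as judged from its values, and served as an alternative. Levels were log2 processed signal minus the 75th percentile of the array, averaged over the spots of a probe. Probes well above background on at least 3 of 12 arrays were kept, and the probe with the highest mean stood for a gene. All 12 arrays were fitted with limma 3.58.1 in R 4.3.3 (1 mean per group, eBayes, 8 residual degrees of freedom, with the packages jsonlite 2.0.0 and data.table, version 1.17.8), after a test on simulated data. Alternatives were normalization, background correction, filters, probe rule, slide block, replicate block, fewer arrays, and each array left out. Same-numbered Th9 and Th2 arrays had deviations from their group means that correlated at 0.179 to 0.410 over genes, all 3 pairs above 0.1. A fit with the replicate number as a block was therefore given beside the main fit, a pairing taken from the data and not the labels. The block was fitted over all 12 arrays, and calls are from the main fit, which has no block, unless another fit is named. In the other comparisons of the report at least 1 of the 3 pairs fell below 0.1. The number of arrays limits the precision. Members and lists were chosen with earlier results of these data known. Named list genes were up to 3 called ones per direction with the largest difference, and some genes that this rule names are not reported here. Errors are SD for levels and SE for differences. A fold written as at least replaces a dim signal, array by array, by the dimmest signal that any probe well above background had there, where that is higher. Sequences are from RefSeq.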

Additional observations from a re-analysis of the deposited data

How the results depend on the processing

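Between Th9 and Th2 cells the count of IRF genes passing was 2 with the deposited table or quantile normalization, where 17.6% of all genes passed with each. The count was also 2 with the filter on all arrays of a group (17.8% of all genes) or the replicate block (17.2%). With normexp it was 3 (21.3%), and with slide as a block 0 (1.77%). Without the arrays numbered 3 (chosen after seeing the data) it was 4 (20.4%). Leaving out 1 array gave 1 to 3 IRF genes there, and 1813 to 2745 genes over all, against 318 with slide as a block. Slide as a block left 6682 genes between Th9 and Treg cells. The median SE between Th9 and Th2 cells was then 0.37, against 0.17 without the block. The share of calls that were higher was 59.1% with the block, against 45.8%.

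Values that changed sign, all of differences that did not pass in the fit reported, were these. After stimulation, Irf1 was -0.12 with the deposited table and with quantile normalization, -0.059 with slide as a block and within slide 3, and -0.013 without the arrays numbered 3, Irf2 was -0.075 without those arrays, and Irf9 was -0.16 with the deposited table, -0.17 with quantile normalization, -0.062 with the median over probes and -0.058 without those arrays. Irf3 between Th9 and Th2 cells was 0.054 with the deposited table and with quantile normalization, and with slide as a block Irf7 was -0.29 there and Irf8 0.48 between Th9 and Treg cells. Leaving out 1 array gave ranges after stimulation of -0.13 to 0.34 for Irf1, -0.075 to 0.25 for Irf2, -0.39 to 0.20 for Irf8 and -0.049 to 0.081 for Irf9, and between Th9 and Th2 cells of -0.092 to 0.062 for Irf3 and -0.27 to 0.49 for Irf7. The cause was not tested.

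The labels number the arrays of each group and state no pairing. Deviations of same-numbered arrays correlated at 0.095 to 0.207 between stimulated Th9 and Th9 cells. The range was 0.049 to 0.137 between Th9 and Treg cells, and -0.0064 to 0.026 between Th2 and Treg cells. Whether same-numbered arrays share a preparation was not tested. With the replicate block Irf8 passed between Th9 and Th2 cells (0.59, adjusted p = 0.00504) and between Th9 and Treg cells (-0.53, adjusted p = 0.00129), and genes passing numbered 3084 between Th9 and Th2 cells. The block changed no other call of an IRF gene. Not every array correlated best with its own number. Irf7 after stimulation passed with only the arrays compared (0.59, adjusted p = 0.00591), and Irf4 after stimulation missed the threshold with the deposited table (0.44, adjusted p = 0.0644). Irf2 between Th9 and Th2 cells passed with normexp (-0.45, adjusted p = 0.0469). No value within a slide could be had between Th9 and Th2 or between Th9 and Treg cells.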
